A study of Mus musculus with 14 samples.

Results

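The distal segment beyond Ppp2r3a is a 380 kb stretch of mouse chromosome 9 (GRCm38, 101260001 to 101640000) that was read as a contact partner of 3 UMI-4C baits at the Stag1 locus. Its members were the restriction fragment ends with an end position in that interval that were paired with the bait end, chosen by position and not by their counts. Of the 57584 fragment ends on chromosome 9 that were seen outside 10 kb of a bait in any of the 14 libraries, 1423 lay in the segment. The libraries came from untreated embryonic stem cells (ESC), kept in 2i with LIF, and from untreated neural stem cells (NSC), which were derived from ES cells and kept in EGF with FGF. No allele or genetic change is named for either cell type, and the labels do not say how many cultures the libraries represent. Nanog bait 1 gave 4 ESC and 3 NSC libraries, Nanog bait 2 gave 3 ESC libraries and 1 NSC library, and the CTCF bait gave 2 ESC libraries and 1 NSC library. Fragment ends shared on other chromosomes showed that ESC 1 and 4, ESC 2 and 3, and NSC 1 and 3 of bait 1 were repeats of the same material, and each pair was averaged and counted as 1 sample. Bait 1 thus had n = 2 in each cell type, and the 14 libraries made 11 independent samples. A further 9 pairs of libraries of 1 bait shared 1.92% to 12.9% of these ends and are called linked. They join ESC 1 and 4 to NSC 1 and 3 and ESC 3 to NSC 2 of bait 1, ESC 1 to NSC of bait 2, and all 3 libraries of the CTCF bait to each other. The ESC samples of the CTCF bait may therefore share molecules, but whether shared ends are shared molecules was not tested. The other 18 pairs of 1 bait shared at most 0.466%. In the segment, linked pairs had 14.4% to 65.6% of the ends of the library with fewer ends in common, and the other pairs 8.89% to 33.3%. The part of this sharing in the differences between cell types was not tested.

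UMI-4C counts the ligation events between 1 chosen fragment end, the bait, and the rest of the genome, and tells PCR copies from separate molecules by their sheared ends, which act as unique molecular identifiers (UMIs). In such profiles contacts fall steeply with distance along the chromosome, and they fall further across the boundaries between topologically associating domains, the stretches within which cohesin extrudes loops until it meets bound CTCF. Stag1, which holds both Nanog baits in its introns, encodes a subunit of cohesin, the ring complex that forms these loops. The question put to the segment was how often it was contacted from each bait in each cell type.

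The segment holds few genes. Ppp2r3a, which encodes a regulatory subunit of protein phosphatase 2A (101105084 to 101251795, minus strand), ends 8206 bp below it. Msl2, a component of the MSL histone acetyltransferase complex, and Pccb, a subunit of the mitochondrial propionyl-CoA carboxylase, follow 155 kb and 225 kb below. On the far side the next annotated gene is the processed pseudogene Gm47932 at 115 kb, and the next protein-coding genes are 9630041A04Rik at 222 kb and Ephb1, a receptor for ephrin-B ligands, at 282 kb. Inside the segment GENCODE lists 6 genes, of which 0 code for protein. They are the processed pseudogenes Gm3121, Gm28660, Gm29385 and Gm5161, the lincRNA Gm28979 (101342194 to 101348017, plus strand) and the snoRNA Gm24638, and together they cover 2.06% of the segment. The base content was 43.2% GC against 42.7% over chromosome 9, and 27.9% of the bases were soft-masked repeats against 32.0%. GATC, the sequence at which every listed end lay, occurred 24.9 times per 10 kb both in the segment and over the chromosome. The 946 GATC sites of the segment give 1892 possible fragment ends, and 75.2% of them were seen at least once. The core consensus of CTCF, a motif of 12 letters searched on both strands, had 0 matches in the segment, while 9.97% of all 20 kb windows of chromosome 9 held one. This says only that these letters do not occur in the segment, and no binding data were used.

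Some of the ends that recurred in the most independent samples are printed below as examples. They were picked for recurrence and need not be typical of the contacted ends of the segment. The end at 101261387 was seen in 8 of the 11 independent samples, and no end was seen in more. The end at 101266548 was one of the 7 ends seen in 7 samples, and its whole fragment of 275 bp is printed. The end at 101260249, also seen in 7, was in 6 of the 7 ESC samples and 1 of the 4 NSC samples, while that at 101261387 was in 4 of the 7 and in all 4. The sequences below are from the reference genome, up to 300 bases from the ligated end into the fragment, and the capitals mark the GATC at which the end lies.
End at 101261387, chr9:101261385-101261684, plus strand: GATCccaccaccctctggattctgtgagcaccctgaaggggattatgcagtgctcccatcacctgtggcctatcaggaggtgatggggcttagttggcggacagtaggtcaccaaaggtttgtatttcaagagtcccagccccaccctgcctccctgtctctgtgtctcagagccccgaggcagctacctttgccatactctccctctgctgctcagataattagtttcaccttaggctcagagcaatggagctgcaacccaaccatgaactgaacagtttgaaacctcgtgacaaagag
End at 101266548, chr9:101266546-101266820, plus strand: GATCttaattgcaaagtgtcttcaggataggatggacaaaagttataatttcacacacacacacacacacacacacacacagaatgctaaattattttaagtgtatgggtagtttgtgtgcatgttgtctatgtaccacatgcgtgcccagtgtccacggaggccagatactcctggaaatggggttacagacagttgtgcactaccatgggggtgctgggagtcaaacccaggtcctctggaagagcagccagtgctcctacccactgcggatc
End at 101260249, chr9:101260247-101260546, plus strand: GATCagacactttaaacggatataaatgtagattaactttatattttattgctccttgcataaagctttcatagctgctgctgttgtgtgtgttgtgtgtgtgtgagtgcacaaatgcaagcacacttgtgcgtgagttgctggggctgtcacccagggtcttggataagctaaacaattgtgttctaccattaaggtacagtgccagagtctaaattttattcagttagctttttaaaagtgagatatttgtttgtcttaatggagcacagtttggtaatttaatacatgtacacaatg

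All 3 ends lie between genes, in the 20 kb of the segment nearest the baits. The end at 101261387 carried 11 UMIs over the 14 libraries, that at 101266548 carried 13 and that at 101260249 carried 11. A single end therefore held too few UMIs for a comparison of the cell types, and all comparisons below sum over many ends. The ends at 101267136 and 101279380, which the naming rule also picked, were seen in 7 samples each, and both lie in the same first 20 kb. The ends named here are not all of those that recurred most, so their places do not show where such ends lie in the segment.

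The libraries held 7172 to 51412 UMIs at the bait end. Of these, 4710 to 38704 lay on chromosome 9 outside 10 kb of the bait, and this number is the denominator of every share below unless another is named. The segment received 45 to 1410 UMIs per library and 5215 in all. At these depths 3 UMIs correspond to between 0.00775% and 0.0637%. Confidence intervals are 95% Wilson intervals and cover counting error only. The p-values measure the spread between these samples, which may be technical, because nothing says that they came from separate cultures.

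The segment took a larger share of contacts in NSC than in ESC from each of the 3 baits. From Nanog bait 1, which lies 640 to 1020 kb away, the ESC libraries 1 to 4 put 1.97%, 1.48%, 1.73% and 2.02% of their UMIs in the segment. The NSC libraries 1 to 3 put 2.96%, 3.05% and 3.05% there. All NSC libraries lay above all ESC libraries, and the intervals of the highest ESC library (1.83% to 2.24%) and the lowest NSC library (2.70% to 3.26%) did not overlap. The ESC mean over independent samples was 1.80% ± 0.275 (SD, n = 2) and the NSC mean 3.03% ± 0.0306 (SD, n = 2), a difference of 1.22 percentage points or 1.68-fold. The two-sided exact permutation test gave p = 0.333, the smallest value that 2 samples against 2 allow. Within the linked libraries the difference was 1.01 points (1.504-fold) among ESC 1, ESC 4, NSC 1 and NSC 3, and 1.44 points (1.89-fold) among ESC 2, ESC 3 and NSC 2.

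From Nanog bait 2, 618 to 998 kb away, the ESC libraries 1 to 3 gave 1.76%, 0.955% and 1.25%. The NSC library gave 3.11% (95% interval 2.81% to 3.44%). The NSC value lay above every ESC value, and it exceeded the ESC mean of 1.32% ± 0.407 (SD, n = 3) by 1.79 points (2.35-fold). Against ESC 1, to which this NSC library is linked, the difference was 1.35 points (1.77-fold). From the CTCF bait, 805 to 1185 kb away, the ESC libraries gave 3.64% and 3.32% and the NSC library 4.94% (95% interval 4.61% to 5.30%). Here the ESC mean was 3.48% ± 0.228 (SD, n = 2), and NSC was higher by 1.46 points (1.42-fold), by 1.30 points (1.36-fold) over ESC 1, which shared the most ends with it, and by 1.62 points over ESC 2. With 1 NSC library there was no replicate test of the share for these baits. All differences were larger than the SD of the ESC samples.

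**Figure D1:**
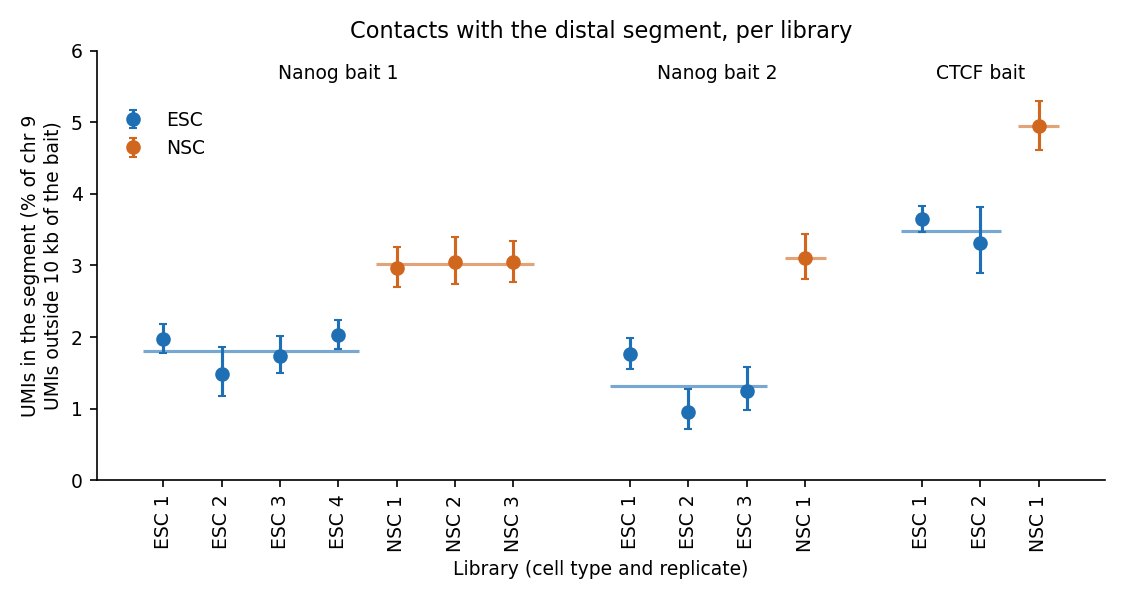
Each point is 1 library, by bait and cell type, and the vertical axis is the segment's percentage of its UMIs on chromosome 9 beyond 10 kb from the bait, with 95% Wilson intervals. Horizontal lines are means over independent samples, from 1.32% in Nanog bait 2 ESC to 4.94% in CTCF bait NSC, and every NSC point lies above the ESC points of its bait.

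Depth and the spread of UMIs over chromosomes moved with this share. Among the ESC libraries of each bait, those with more UMIs had the larger share, from 1.48% at 4918 UMIs to 2.02% at 18402 for bait 1, from 0.955% at 4710 to 1.76% at 13926 for bait 2, and from 3.32% at 5813 to 3.64% at 38704 for the CTCF bait. The NSC libraries held 10367 to 15209 UMIs, and at each bait the deepest ESC library held more UMIs than every NSC library, and its share was smaller. The part of depth in the difference between cell types was not tested. The percentage of UMIs outside 10 kb that stayed on chromosome 9 was 66.9% to 88.0% in ESC libraries and 57.4% to 75.1% in NSC libraries, and it was lower in each NSC library than in every ESC library of its bait. With UMIs on all chromosomes as the denominator the means were 1.36% in ESC and 1.80% in NSC for bait 1, 0.972% and 1.96% for bait 2, and 2.89% and 3.71% for the CTCF bait. NSC remained above all ESC samples in each case, with differences of 0.44, 0.986 and 0.817 points.

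The segment was next set beside the rest of the chromosome, cut into bins of 380 kb. It covers 0.305% of chromosome 9 but ranked 5 to 8 of 327 bins by share in the 6 groups, with 19.4 to 75.2 times the share of the median bin. A quasi-likelihood test in edgeR over 319 bins, with independent samples of all groups fitted together, gave the segment a log2 fold change (NSC over ESC) of 0.72 ± 0.25 (SE, adjusted p = 0.128) for bait 1, which did not pass the 0.05 threshold. For bait 2 the edgeR value was 1.19 ± 0.28 (SE, adjusted p = 0.00288), which passed, and for the CTCF bait it was 0.50 ± 0.29 (SE, adjusted p = 0.868). For bait 2 and the CTCF bait the single NSC sample was assumed to vary as the other groups do. Few bins passed at all. The share of bins called higher in NSC was 0.313% for bait 1, 0.627% for bait 2 and 0% for the CTCF bait, and at an unadjusted p under 0.05 there were 59, 26 and 21 bins.

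Most of the chromosome moved the same way on this scale. The median log2 fold change over all bins was 0.60 for bait 1, 0.43 for bait 2 and 0.25 for the CTCF bait, with 86.2%, 75.5% and 62.1% of bins above 0. Relative to that median the segment stood at 0.12, 0.76 and 0.25, and it ranked 134, 53 and 116 among the 319 bins. For bait 1 the segment thus lay close to the middle of the chromosome. With TMM factors, which scale on the bulk of the bins and brought the medians to 0.09, 0.06 and 0.08, the segment's log2 fold changes were 0.16, 0.75 and 0.24, and the bait 2 call was lost (adjusted p = 0.189). It was also lost with DESeq2 (log2 fold change 0.82, adjusted p = 0.99), once every end was given a weight of 1 (0.97, adjusted p = 0.983), with bait 2 fitted alone (1.20, adjusted p = 0.61) and without ESC 2 of bait 2 (1.02, adjusted p = 0.114). With the library size taken outside 100 kb of the bait, the values were 0.50, 0.93 and 0.44, and bait 2 passed (adjusted p = 0.0296).

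The bins on either side of the segment differed from it and from each other. The bin nearer the baits (100880001 to 101260000), which holds Pccb, Msl2 and Ppp2r3a, had log2 fold changes of -0.32, -0.11 and -0.56 for bait 1, bait 2 and the CTCF bait, and in edgeR none of the 3 passed (adjusted p = 0.34, 0.906 and 0.711). The bin beyond the segment (101640001 to 102020000), which holds 9630041A04Rik and the start of the annotated Ephb1 interval, had 1.16, 1.499 and 1.18. It passed for bait 1 (edgeR adjusted p = 0.00389) and bait 2 (edgeR adjusted p = 0.000383) and not for the CTCF bait (edgeR adjusted p = 0.0569). The bait 1 call was lost with TMM factors (0.62, edgeR adjusted p = 0.154), with DESeq2 (0.73, adjusted p = 0.983), with each end counted once (0.81, edgeR adjusted p = 0.764) and without NSC 2 of bait 1 (1.19, edgeR adjusted p = 0.243). The bait 2 call was lost with DESeq2 (1.16, adjusted p = 0.16), with each end counted once (1.28, edgeR adjusted p = 0.588) and with bait 2 fitted alone (1.51, edgeR adjusted p = 0.527). For the CTCF bait this farther bin did not pass in most settings. It did pass in some, such as TMM factors (0.94), the library size outside 100 kb (1.10) and without ESC 1 of that bait (1.63). The segment lay between its neighbours in fold change at each bait. In shares, the nearer bin held 5.77, 8.82 and 5.94 times the segment's share in ESC and 2.73, 3.46 and 2.83 times in NSC. The segment in turn held 1.77, 1.88 and 2.50 times the share of the farther bin in ESC and 1.29, 1.49 and 1.52 times in NSC. Contacts therefore fell less steeply across the segment in NSC than in ESC from every bait, as group means.

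**Figure D2:**
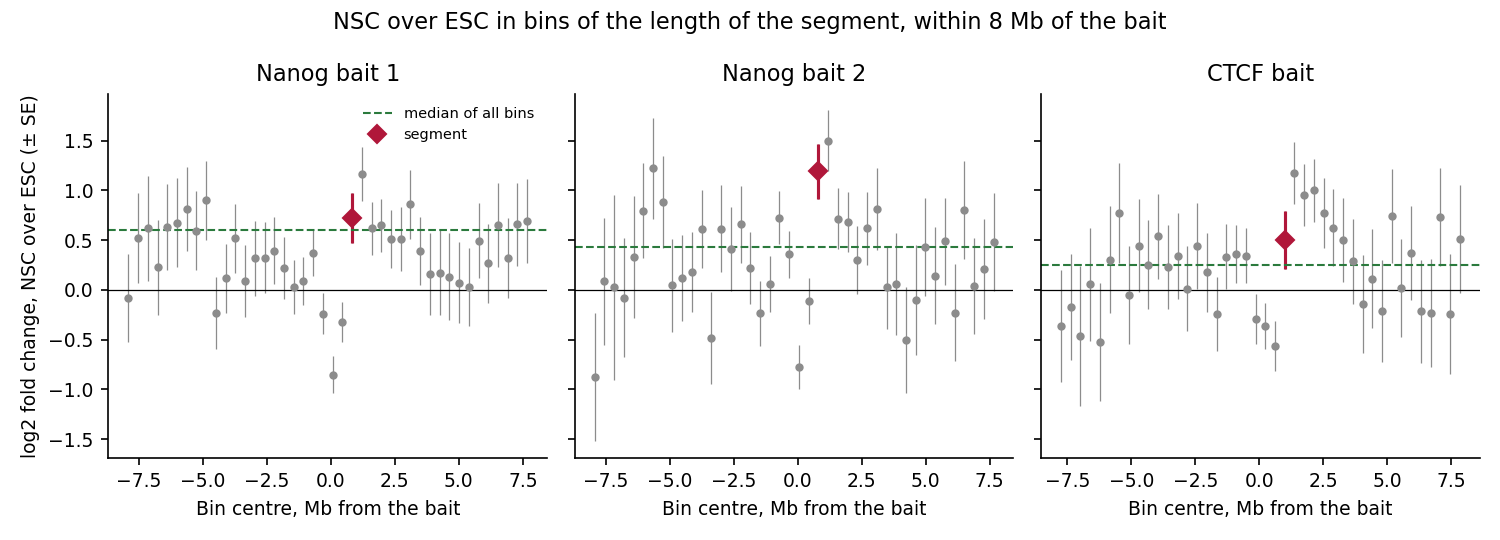
Each point is a 380 kb bin within 8 Mb of the bait, placed by the distance of its centre from the bait in Mb, and the vertical axis is the edgeR log2 fold change of NSC over ESC with its SE. The red diamond is the segment at 0.72, 1.19 and 0.50, and the dashed line is the median of all bins at 0.60, 0.43 and 0.25.

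The fold changes of the segment were not shown to differ between baits. The difference in log2 fold change was -0.47 ± 0.38 (SE, unadjusted p = 0.213 in edgeR) for bait 1 minus bait 2, 0.22 ± 0.39 (SE, unadjusted p = 0.569 in edgeR) for bait 1 minus the CTCF bait and 0.69 ± 0.41 (SE, unadjusted p = 0.0941 in edgeR) for bait 2 minus the CTCF bait. Over all bins the adjusted p was at least 0.987 for each of the 3 differences. These standard errors leave room for differences as large as the fold changes themselves.

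The levels in ESC, by contrast, were ordered by bait. The CTCF bait, the farthest of the 3 from the segment, gave it the largest share, with 3.32% and 3.64% against 1.61% and 2.00% in the independent samples of bait 1 and 0.955% to 1.76% in those of bait 2. The CTCF bait samples did not overlap with either Nanog bait. The difference from the CTCF bait was -1.68 points for bait 1 (exact permutation p = 0.333, two-sided, the smallest that n = 2 and 2 allow) and -2.16 points for bait 2 (exact permutation p = 0.1, two-sided, the smallest that n = 3 and 2 allow). Baits 1 and 2, the neighbours in this order, overlapped and differed by 0.483 points (exact permutation p = 0.3, two-sided). In NSC the order of the CTCF bait over the others was kept, at 4.94% against 3.03% and 3.11%, with 1 or 2 samples each and no test.

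To set distance aside, the segment was compared with its mirror, the stretch of equal length at the same distances on the other side of each bait. The mirror differs with the bait and carries its own sequence and genes, so only the change between cell types within a bait is compared. From bait 1 the segment held 0.630 times the UMIs of its mirror in ESC and 0.817 times in NSC, as geometric means. The log2 ratio was -0.67 ± 0.15 (SD, n = 2) and -0.29 ± 0.014 (SD, n = 2), a difference of 0.38 (exact permutation p = 0.333, two-sided, the smallest possible). From bait 2 the ESC libraries had ratios of 0.700, 0.556 and 0.641 and the NSC library 0.845, a log2 difference of 0.42 from the ESC mean. From the CTCF bait the ESC libraries had 1.33 and 1.79 and the NSC library 1.84, a log2 difference of 0.25. The share of the mirror itself was also higher in NSC at the Nanog baits. For bait 1 it was 2.73% to 2.96% in ESC libraries and 3.63% to 3.77% in NSC libraries. For bait 2 it was 1.72% to 2.51% in ESC and 3.68% in NSC. For the CTCF bait the ESC libraries had 2.74% and 1.86% and the NSC library 2.69%. The 2 Nanog baits had more UMIs in the mirror than in the segment in every library, and the CTCF bait had more in the segment. These levels describe each bait against its own mirror and are not a comparison of baits. For the Nanog baits NSC lay above ESC by more than the SD of the ESC samples. For the CTCF bait the difference was smaller than the ESC SD of 0.30, and it ran from 0.041 without ESC 1 to 0.47 without ESC 2.

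**Figure D3:**
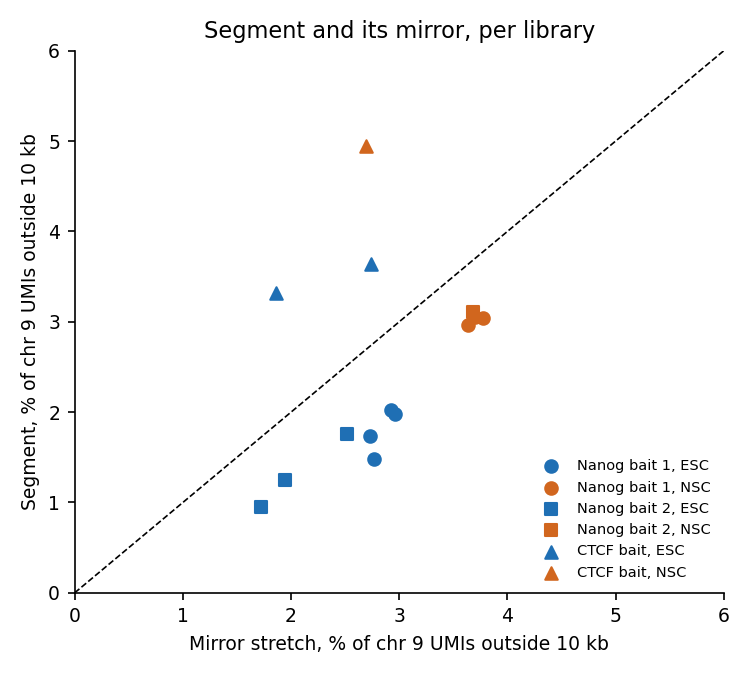
Each point is 1 library, with the share of the mirror stretch on the horizontal axis and that of the segment on the vertical axis, both in percent of chromosome 9 UMIs outside 10 kb of the bait. The dashed line marks equal shares, and the Nanog bait libraries lie below it and the CTCF bait libraries above it.

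Inside the segment, contacts were spread over all of its 19 windows of 20 kb, with 176 to 537 UMIs per window over the 14 libraries. Windows are numbered from the side nearer the baits. Window 1 (101260001 to 101280000) had the largest share at Nanog baits 1 and 2, and the largest in ESC at the CTCF bait. From bait 1 ESC gave it 0.220% ± 0.012 (SD, n = 2) and NSC 0.276% ± 0.035 (SD, n = 2). From bait 2 the ESC libraries gave 0.223%, 0.149% and 0.151% and the NSC library 0.302%, and from the CTCF bait the ESC libraries gave 0.382% and 0.361% and the NSC library 0.427%. NSC was above every ESC sample in window 1 at each bait, but none of the edgeR log2 fold changes of 0.38, 0.67 and 0.18 passed (adjusted p = 0.333, 0.154 and 0.706).

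The windows were tested with edgeR among the 145 windows within 1.5 Mb of the middle bait. From bait 1, 1 of the 19 windows was called higher in NSC, against 2.76% of all windows. At an unadjusted p under 0.05 there were 5 of the 19 (1 in DESeq2), all higher in NSC, and 44 of all 145 (30.3%), of which 21 were higher in NSC. The called window was window 18 (101600001 to 101620000), where ESC libraries 1 to 4 had 10, 2, 4 and 11 UMIs and NSC libraries 1 to 3 had 18, 18 and 20. As shares, ESC had 0.0488% ± 0.012 (SD, n = 2) and NSC 0.155% ± 0.026 (SD, n = 2), and the groups do not overlap. The edgeR log2 fold change was 1.59 ± 0.51 (SE, adjusted p = 0.0274). From bait 2, 1 window was called higher in NSC, against 3.45% of all windows. At an unadjusted p under 0.05 there were 10 of the 19 (1 in DESeq2), all higher in NSC, and 46 of all 145 (31.7%), of which 33 were higher in NSC. The called window was window 11 (101460001 to 101480000), with 5, 0 and 2 UMIs in ESC 1 to 3 and 18 in NSC. The shares were 0.0359%, 0% and 0.0378% against 0.151%, and the ESC library with 0 UMIs allows a share of up to 0.0637%. The edgeR log2 fold change was 2.34 ± 0.65 (SE, adjusted p = 0.0312). The test made false calls in simulated counts, among windows of both Nanog baits and bins of bait 2, so these calls are less certain. This holds most for bait 2, which has 1 NSC library and whose windows had most of the false calls.

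The 2 called windows were not the same at both Nanog baits. Window 11 had a log2 fold change of 0.46 for bait 1 (edgeR adjusted p = 0.44), where its share was 0.0609% and 0.169% in the ESC samples and overlapped with NSC, and of -0.12 for the CTCF bait (edgeR adjusted p = 0.856). Window 18 had 1.25 for bait 2 (edgeR adjusted p = 0.227) and 1.00 for the CTCF bait (edgeR adjusted p = 0.162). From the CTCF bait 0 of the 19 windows were called by edgeR, against 0.69% of all windows, with 4 at an unadjusted p under 0.05 (0 in DESeq2), while 38 of all 145 windows (26.2%) had such a p and 24 of these were higher in NSC. The bait 1 call was lost with each end counted once (1.12, edgeR adjusted p = 0.739), with the linked batch as a block (1.57, edgeR adjusted p = 0.0507) and without NSC 2 of bait 1 (1.43, edgeR adjusted p = 0.232). The bait 2 call was lost with bait 2 fitted alone (2.35, edgeR adjusted p = 0.256). It was also lost without ESC 2 (2.03) or ESC 3 (2.46) of bait 2, or without ESC 1 (2.33) or ESC 2 (2.34) of the CTCF bait, with edgeR adjusted p of 0.0548, 0.057, 0.0682 and 0.0686. DESeq2 gave neither window an adjusted p, because its filter on low counts removed them, and its unadjusted p was 0.0259 for window 18 and 0.0137 for window 11.

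Although few windows passed singly, nearly all stood higher in NSC. The log2 fold change was above 0 in 19 of 19 windows for bait 1, 19 of 19 for bait 2 and 17 of 19 for the CTCF bait, where windows 9 and 11 were the exceptions (-0.01 and -0.12). It was above 0 in 14 of 19 for the CTCF bait with TMM factors and in 17 of 19 for bait 1 with each end counted once, and DESeq2 gave 19, 19 and 15 of 19. Over all tested windows 60% to 62.8% were above 0 for the Nanog baits and 54.5% for the CTCF bait. These windows lie within 1.5 Mb of the middle bait, and 16, 1 and 5 of them were called lower in NSC by edgeR. Of the 380 kb bins of the whole chromosome, 86.2%, 75.5% and 62.1% were above 0, so the direction was not particular to the segment. The median over the segment was 0.68, 1.14 and 0.53, and over all windows 0.12, 0.48 and 0.05. NSC lay above every ESC sample in 16 of 19 windows for bait 1, against 39.3% of all windows, in 19 of 19 for bait 2, against 54.5%, and in 16 of 19 for the CTCF bait, against 47.6%. Neighbouring windows share libraries and the overall share of the segment, so these counts are not 19 independent observations.

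**Figure D4:**
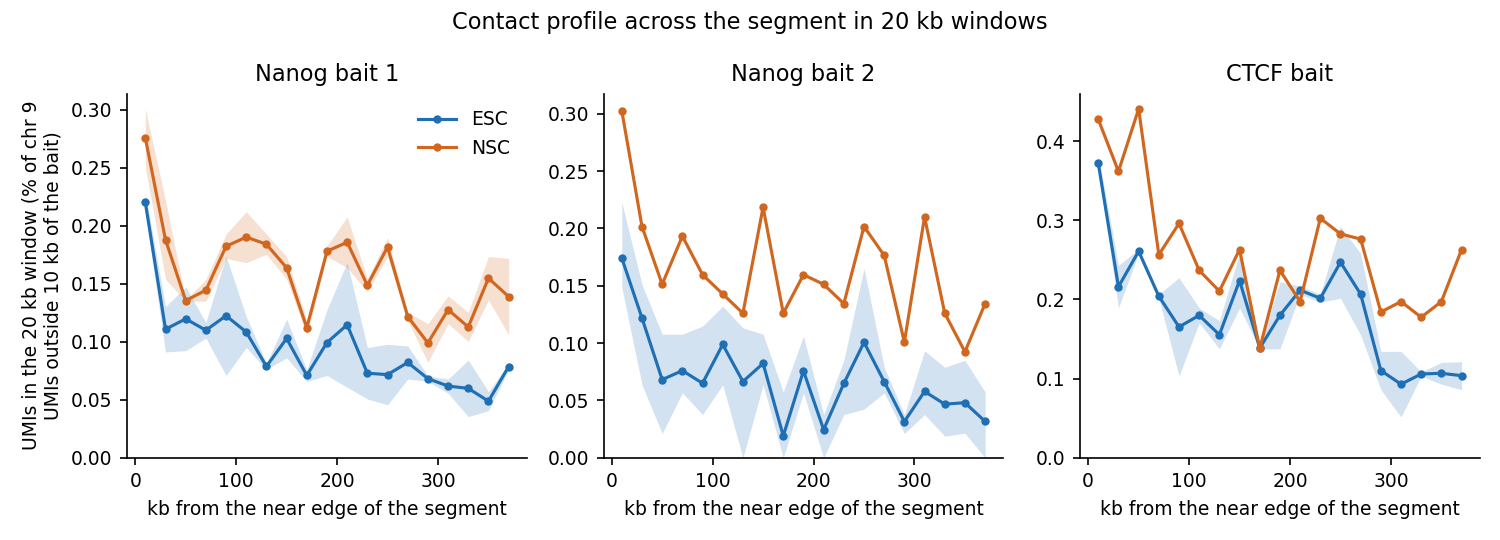
Mean share of each 20 kb window (percent of chromosome 9 UMIs outside 10 kb of the bait) by distance in kb from the edge of the segment nearer the baits, for ESC and NSC at each bait, with bands from the lowest to the highest independent sample. At Nanog bait 2 window 1 stands at 0.302% in NSC and 0.174% in ESC, and at each bait NSC runs above ESC along nearly the whole segment.

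Over the 19 windows the mean shares of ESC and NSC correlated with Pearson's r of 0.78 to 0.79 within each bait, and profiles of different baits in 1 cell type with r of 0.52 to 0.82. These are descriptions over neighbouring windows that share distance and GATC sites. The number of GATC sites per window correlated with the UMIs per window with r of -0.04 to 0.33. The windows with the next largest shares after window 1 by the mean of both cell types were window 5 and window 11 for bait 1, window 2 and window 13 for bait 2, and window 3 and window 2 for the CTCF bait. Window 5 (101340001 to 101360000) holds the lincRNA Gm28979. From bait 1 its share was 0.174% and 0.071% in the ESC samples, an SD of 0.0728 around a mean of 0.122%, and 0.182% ± 0.015 (SD, n = 2) in NSC, with an edgeR log2 fold change of 0.32 (adjusted p = 0.632). Window 3 (101300001 to 101320000) gave 0.264% and 0.258% in the ESC libraries of the CTCF bait and 0.441% in NSC, the largest share of any window in any group, with an edgeR log2 fold change of 0.74 ± 0.28 (SE, adjusted p = 0.0779).

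The far end of the segment made up a larger part of its contacts in NSC than in ESC at each bait. Split into 4 stretches of 95 kb, the stretch nearest the baits held 37.1% of the segment's UMIs in ESC and 28.9% in NSC for bait 1, 36.8% and 30.5% for bait 2, and 34.1% and 35.4% for the CTCF bait. The farthest stretch held 16.7% ± 0.47 (SD, n = 2) for ESC against 20.3% ± 0.39 (SD, n = 2) for NSC at bait 1, 15.3% ± 2.9 (SD, n = 3) and 20.8% for bait 2, and 14.2% ± 1.0 (SD, n = 2) and 19.0% for the CTCF bait. The farthest stretch has 20.8% of the GATC sites and the nearest 24.4%. Its part of the segment was higher in NSC than in every ESC sample at all 3 baits, and that of the nearest stretch was lower in NSC than in every ESC sample at the Nanog baits and higher at the CTCF bait. In shares of chromosome 9, the farthest stretch went from 0.300% to 0.614% for bait 1, from 0.200% to 0.647% for bait 2 and from 0.495% to 0.940% for the CTCF bait. The middle stretches overlapped between ESC and NSC in bait 2, where ESC samples ranged from 17.8% to 31.8% in the second stretch. No test was run on these parts.

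**Figure D5:**
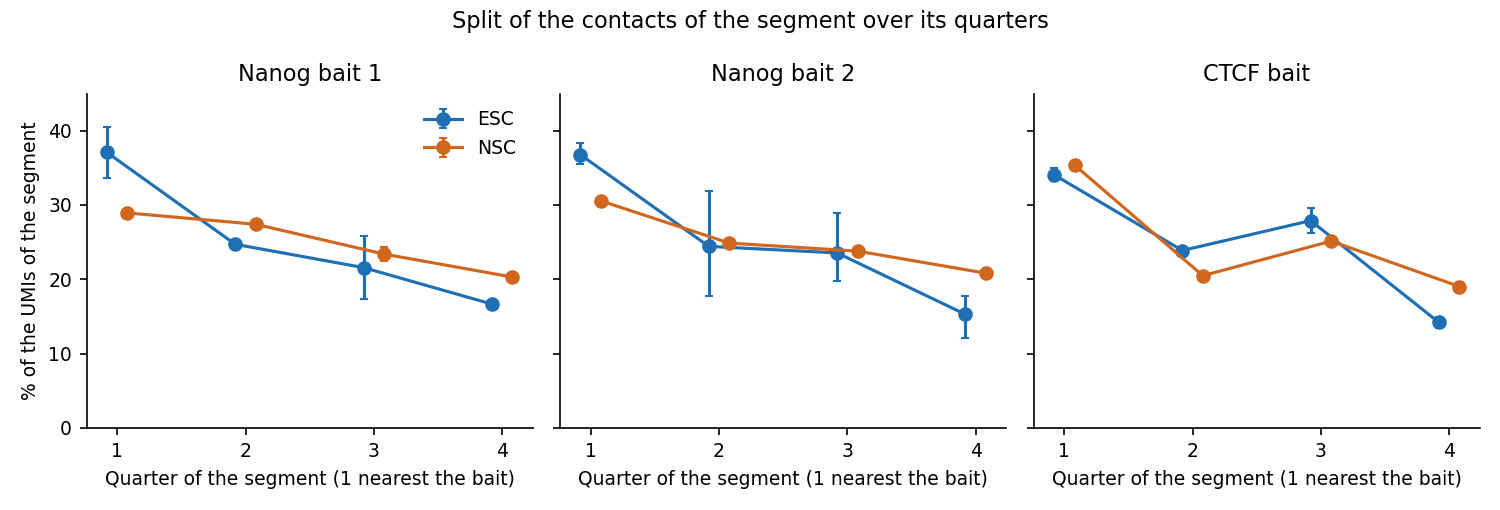
Percentage of the segment's UMIs in each of its 4 stretches of 95 kb, numbered from the side nearer the baits, as means over independent samples with bars from the lowest to the highest. The line of NSC ends above that of ESC in stretch 4 at each bait, at 20.3%, 20.8% and 19.0% against 16.7%, 15.3% and 14.2%.

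At the level of single ends the UMIs of the segment were spread over many ends. With 45 to 1410 UMIs per library over 1892 possible ends, depth alone keeps most counts low. Whether contacts concentrate on single ends therefore cannot be told, and no other region was compared. Of its 1423 ends, 347 (24.4%) were seen in 1 independent sample, 432 (30.4%) in 2 and 340 (23.9%) in 3, and 2 ends in 8. From the CTCF bait 1178 ends were seen, from bait 1 860 and from bait 2 546. Ends seen from all 3 baits numbered 250 (17.6%), and 512 (36.0%) were seen from 1 bait. The baits differ in depth, so these counts are not ranks of preference. The highest count of an end in a library was 5 UMIs. Ends with 2 or more UMIs made up 0% to 11.2% of the segment's ends in the Nanog bait libraries and 2.12% in ESC 2 of the CTCF bait, and 37.1% in ESC 1 and 21.9% in NSC of the CTCF bait, which had the most UMIs in the segment (1410 and 752).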

How the data were processed

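The authors deposited 1 file per library with the whole-number count of UMIs for each pair of fragment ends, not normalised. The submitters' processing notes name Bowtie2 and mm10, and the rules for UMI collapsing and filtering are not given in the sources used here. The bait was the end with the most partners. Listed ends lay at GATC sites of GRCm38 in 100% of cases (0.326% to 0.587% after a shift of 100 bp). Groups came from the titles. Libraries sharing over 50% of their ends on other chromosomes were averaged, and those sharing over 1% are called linked. The segment and all lists were chosen with earlier results of these data known. Counts in 380 kb bins and 20 kb windows (at least 10 UMIs, none within 10 kb of a bait) were tested with edgeR 4.0.16 (limma 3.58.1, R 4.3.3), with Benjamini-Hochberg adjustment over all features. The procedure was also tested on simulated counts, where it recovered few of the smallest changes and made some false calls, most of them among the windows of bait 2. These counts were drawn once, with a smaller spread between samples than the fitted one. Library size was the chromosome 9 UMIs outside 10 kb. DESeq2 1.42.0 was an alternative. Named windows were, per bait, up to 5 past an adjusted p of 0.05 and the 3 with the largest share, and named ends the 6 in most samples, of which 1 is not reported here. Shares were computed in Python 3.11.15 with scipy 1.17.1. Sequences and repeats came from RefSeq's GRCm38 assembly and genes from GENCODE.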

Additional observations from a re-analysis of the deposited data

Results flagged for a closer look

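Besides the bait end, other fragment ends within 10 kb of bait 1 also had partners listed, and these are used in no comparison above. In 4 libraries of bait 1 they placed more UMIs in the segment than the limit of 3: 11 in ESC 1, 9 in ESC 4, 14 in NSC 1 and 15 in NSC 3. Since ESC 1 and 4, and NSC 1 and 3, are repeats, this is 1 sample of each cell type. As shares of the chromosome 9 UMIs of these ends they are 2.80% (95% Wilson interval 1.57% to 4.94%), 2.17% (1.15% to 4.08%), 2.86% (1.71% to 4.75%) and 2.81% (1.71% to 4.58%). The intervals of ESC and NSC overlap, so a difference was not detectable at this depth. No library of bait 2 or of the CTCF bait passed the limit, with at most 3 UMIs in the segment.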

How the results depend on the processing

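The segment's share was higher in NSC at each bait in every alternative run. Against 1.22 points, the difference for bait 1 was 3.399 over 10 kb to 1.5 Mb, 0.44 over all chromosomes and 0.79 with each end once. For bait 2 it was 3.55 over 10 kb to 1.5 Mb, 0.986 over all chromosomes and 1.35 against the linked library. For the CTCF bait it was 2.89 over 10 kb to 1.5 Mb, 0.817 over all chromosomes, 0.956 with each end once and 1.23 with at most 5 UMIs per end. Leaving out 1 library gave 1.16 to 1.29 points for bait 1, 1.61 to 2.01 for bait 2 and 1.30 to 1.62 for the CTCF bait. With each bait 1 library as a replicate, the exact permutation p was 0.0286 for the share (1.22 points) and mirror (0.37, log2). This counts repeats as samples, so its p-values here and below are not valid. Without 1 library the mirror differences were 0.32 to 0.44, 0.33 to 0.50 and 0.04 to 0.47. The ESC differences between baits were then 0.300 to 0.702, -1.84 to -1.52 and -2.38 to -1.98 points.

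In the count model the log2 fold change for bait 1 passed with each library as a replicate (0.72, adjusted p = 0.000731) and with bait 1 fitted alone (0.72, adjusted p = 0.0425), and without bait 2 ESC 1 (0.72, adjusted p = 0.0373). For bait 2 it no longer passed with TMM factors (0.75), DESeq2 (0.82), each end once (0.97) and bait 2 alone (1.20), and without bait 2 ESC 2 (1.02). Leave-one-out values were 0.69 to 0.77, 1.02 to 1.49 and 0.44 to 0.57. Over all alternatives the edgeR and DESeq2 adjusted p ranged from 0.000119 to 0.983, from 4.44e-06 to 0.99 and from 0.453 to 0.987. The difference of bait 1 minus the CTCF bait turned to -0.090 with TMM factors, and without 1 library the differences were -0.77 to -0.30, 0.15 to 0.28 and 0.52 to 0.99.

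Of the 19 windows, with the count over all 145 windows in parentheses, those called higher in NSC for bait 1 numbered 8 with each library as a replicate (30), 3 with the bait alone (14), and 0 with the linked batch as a block (3) or each end once (0). For bait 2 they numbered 5 with each library as a replicate (17), and 0 with the bait alone (0). For the CTCF bait 3 were called with each library as a replicate (22). In the test reported above, 4, 5 and 1 of all windows were called higher. DESeq2 left 18, 19 and 19 of the 19 windows without an adjusted p. Leave-one-out counts ran from 0 to 3, 0 to 6 and 0 to 2. For bait 1 they were 0 without NSC 2 (0), 2 without NSC 3 (6) and 3 without ESC 2 (9), or without ESC 1 (9) or ESC 2 (8) of bait 2. For bait 2 they were 6 without its ESC 1 (16) and 0 without its ESC 2 or ESC 3 or either ESC library of the CTCF bait (0 each). For the CTCF bait they were 2 and 1 without ESC 1 and ESC 2 of bait 2 (15 and 4). Window 1 at the CTCF bait turned to -0.021 with TMM factors, and window 5 at bait 1 to -0.091 with each end once. The cause was not tested.

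Pairing by number is unsettled. Same-numbered bait 1 deviations correlated at -0.11, 0.0071 and 0.066, but ESC 1 and NSC 1 are linked at each bait. With the replicate block, which took every library as a replicate, the share difference for bait 1 was 1.29 points (exact permutation p = 0.25), the segment's log2 fold changes were 0.79 (edgeR adjusted p = 0.000119) and 0.82 (edgeR adjusted p = 0.265) for baits 1 and 2, and the windows called higher in NSC numbered 8, 0 and 1, against 31, 0 and 6 of all 145. The block changed no other call on the segment, and the bin beyond it no longer passed for bait 2 (1.06, edgeR adjusted p = 0.186). Bins called higher in NSC for bait 1 numbered 1 in the test above, 85 with the block, 94 with each library as a replicate and 4 with the bait alone.

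Depth limits single windows and ends most, since a window of the segment held as few as 0 UMIs in a library.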
